A study of Mus with 12 samples.

Results

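To examine m6A marks on the hepatic handling of bile acids, the peaks of 10 genes were followed through the m6A peak lists of 6 mouse livers. The genes encode transporters of bile acids, phospholipid and organic anions (Abcb11, Abcb4, Abcc2, Abcc3, Abcc4, Slco1a1 and Slco1b2), the enzyme Baat that conjugates bile acids, and the FGF receptor Fgfr4 with its co-receptor Klb. A gene counted as present in a list when a peak carried its name, and 6 of the 10 genes had a peak in at least 1 list. These 6 genes held 95 of 68562 peaks, which merged into 22 of 18374 regions.

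The HFD group was 3 male C57BL/6J mice (HFD 1, HFD 2 and HFD 3) that received diet D12492, with 60% of its energy from fat, for 12 weeks from the age of 6 weeks. The WT group was 3 male C57BL/6J mice of the same age (WT 1, WT 2 and WT 3) that received a low-fat diet, with 10% of its energy from fat, for the same 12 weeks. Neither group carried an altered allele, so WT refers to the diet only, and 1 inbred strain and 1 sex limit the model. MeRIP-seq was used, in which fragmented mRNA is captured with an antibody against N6-methyladenosine (m6A) and sequenced beside the input RNA. Groups follow the sample titles, because the diet in the labels is the high-fat one throughout the 12 samples, and the 6 input libraries were not analysed here.

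Bile acids are made from cholesterol in hepatocytes, joined to taurine or glycine, and pumped across the canalicular membrane into bile. After uptake in the intestine they return in portal blood and are taken up again across the sinusoidal membrane. They also induce an intestinal FGF that acts on hepatocytes through Fgfr4 and Klb and lowers bile acid synthesis.

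A peak is a stretch of transcript enriched in the immunoprecipitate, and its fold enrichment is the peak caller's ratio of immunoprecipitate to input. The score is minus 10 times the log10 of the peak's p-value, and no listed score was below 50. HFD livers had 10288 to 12898 peaks and WT livers had 10109 to 12966 peaks, and the means differed by 553 peaks, less than the spread within either group (p = 0.8 in a two-sided exact permutation test that can give no p below 0.1). The false discovery rates in the lists are headed without a unit and were read as percent. So read, they ran from 25% to 100% over all peaks and from 35.4% to 100% over the peaks of these genes. The recurrence of each peak between mice is therefore given throughout. Of 12 hepatocyte markers, 3 or 4 had a peak in each library and 7, among them Alb, had none in any list, and a gene can be expressed without a peak. Of 14 skeletal muscle markers, WT 2 and WT 3 each listed 11, against 1 in each of the other 4 libraries. WT 3 alone also listed 2 of 6 adipocyte markers and 1 of 6 pancreatic acinar markers. A peak depends on the amount of a transcript as well as on its methylation, and in whole liver fewer cells of a type and less RNA per cell cannot be told apart.

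The same 6 genes were detected under both diets. HFD 1, HFD 2 and HFD 3 held 18, 18 and 13 of their peaks, against 16, 14 and 16 in WT 1, WT 2 and WT 3. All 6 detected genes had a peak in every HFD liver and in WT 1, whereas WT 2 and WT 3 lacked Baat. Of the 22 regions, 10 had a peak in all 6 livers (45.5%, beside 34.0% of all regions), 3 in 5 livers, 3 in 4, 2 in 2 and 4 in 1. Each of these 10 regions had one identical set of bounds in every list, as did 63.4% of all regions found in 6 livers.

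**Figure D1:**
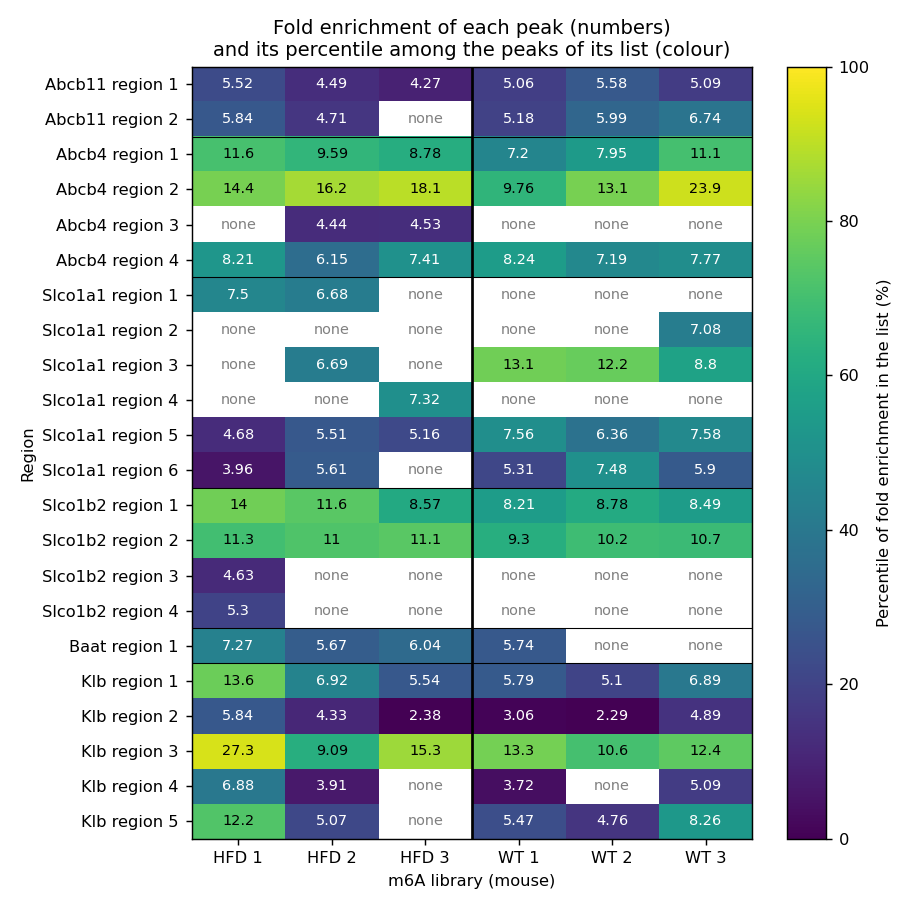
Peaks of the 22 regions (vertical axis, grouped by gene) in the 3 HFD and 3 WT m6A libraries (horizontal axis). Each number is the fold enrichment, the colour is its percentile among all peaks of the same list, and white cells had no peak. Only 10 of the 22 regions are filled in all 6 livers, and Abcb4 region 3, Slco1a1 region 1 and Slco1b2 regions 3 and 4 are among those white in all WT livers.

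No region of these genes separated the diets completely in the full lists. A peak in 3 of 3 HFD livers and in no WT liver was found for 0 of the 22 regions, beside 0.718% of all regions, and the opposite pattern for 0 of the 22, beside 0.294%. Over all 18374 regions these patterns counted 132 and 54 regions. With every list cut to 10109 peaks they counted 94 and 91 of 15922 regions. In these genes they then counted 0 and 1 (Slco1a1 region 3) of 21 regions. Regions with a peak in at least 2 more HFD than WT livers numbered 3 of 22, beside 6.03% of all regions, and were Abcb4 region 3, Slco1a1 region 1 and Baat region 1. The reverse, at least 2 more WT than HFD livers, held for 1 of 22 (Slco1a1 region 3), beside 4.1% of all regions. With so few regions these shares were not set apart from the background. Regions are numbered along each gene from the lower coordinate, on mouse build GRCm38.

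Export across the canalicular membrane was represented by Abcb11 and Abcb4. Abcb11, the bile salt export pump (gene ID 27413, chr2:69238282-69342616), had a pair of neighbouring regions near the middle of the gene. Region 1 (chr2:69284590-69284791, 202 bases) had fold enrichments of 5.52, 4.49 and 4.27 in HFD 1, HFD 2 and HFD 3, against 5.06, 5.58 and 5.09 in WT 1, WT 2 and WT 3. HFD 2 and HFD 3 were the lowest livers and the groups overlapped because HFD 1 lay among the WT values. Region 2 (chr2:69286665-69286868, 204 bases) had 5.84 and 4.71 in HFD 1 and HFD 2 and no peak in HFD 3, against 5.18, 5.99 and 6.74 in WT livers. These 11 peaks stood between the 9.67th and the 38.5th percentile of their lists, so Abcb11 was left with a peak in 0 livers when each list was held to its upper part, from its median fold enrichment upward.

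Abcb4 flips phosphatidylcholine into the canaliculus, where it buffers the detergent action of bile salts (gene ID 18670, chr5:8893614-8959226). Its 4 regions lay at both ends of the gene and in the first part between them. Region 1 (chr5:8893949-8894164, 216 bases) had fold enrichments of 11.6, 9.59 and 8.78 in HFD livers, against 7.2, 7.95 and 11.1 in WT livers, and the groups overlapped. Region 2 (chr5:8896573-8896627, 55 bases) had 14.4, 16.2 and 18.1 in HFD livers, against 9.76, 13.1 and 23.9 in WT livers. WT 1 and WT 3 were its extremes, so that the HFD values lay inside the WT range. Region 4 (chr5:8958969-8959226, 258 bases) ended on the last base of the gene and had 8.21, 6.15 and 7.41 in HFD livers, against 8.24, 7.19 and 7.77 in WT livers. Region 3 (chr5:8905975-8906032, 58 bases) was listed for HFD 2 and HFD 3 alone, at 4.44 and 4.53, and both values stood near the bottom of their lists (percentiles of 12.5 and 13.0). Its score was 80.4 in HFD 2 and 137 in HFD 3.

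The uptake carriers of the sinusoidal membrane were Slco1a1 and Slco1b2. Slco1a1 is an organic anion carrier whose expression in mouse liver is higher in males (gene ID 28248, chr6:141907281-141946962), and it had 6 regions; 6.97% of the genes with a region had at least 6.
Region 5 (chr6:141939963-141940095, 133 bases), its single region in all 6 livers, had fold enrichments of 4.68, 5.51 and 5.16 in HFD livers, against 7.56, 6.36 and 7.58 in WT livers. Every WT liver was above every HFD liver, and this held as well after each value was divided by the median of its library. WT 1, which had a peak in 1 of the 14 muscle markers, was also above all HFD livers, but this is 1 liver. The part of muscle transcripts in the difference was not tested. The scores of region 5 were 55.7, 172 and 51.2 in HFD livers, against 826, 869 and 321 in WT livers, again with no overlap. The paper on these livers lists Slco1a1 RNA as lower in HFD livers by RNA-seq. It places the gene among those that also contain differentially methylated peaks, without naming the peak there. In the limma test described below, region 5 did not pass an adjusted p of 0.05. The part of the RNA change in the scores and peaks of Slco1a1 was not tested.

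Region 3 of Slco1a1 (chr6:141935816-141935962, 147 bases) had a peak in HFD 2 alone among HFD livers, with a fold enrichment of 6.69, against 13.1, 12.2 and 8.80 in WT livers. Its score was 74.5 in HFD 2, against 682, 807 and 205 in WT livers. The one HFD peak was thus weaker than each WT peak by both measures, and it fell out when the lists were cut to 10109 peaks each. Region 6 (chr6:141946579-141946962, 384 bases) reached the higher-coordinate end of the gene, and had 3.96 and 5.61 in HFD 1 and HFD 2 and no peak in HFD 3, against 5.31, 7.48 and 5.90 in WT livers. Here the groups overlapped in fold enrichment, while both HFD scores, 50.01 and 109, were below the WT scores of 194, 116 and 214.

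The other regions of Slco1a1 ran in either direction. Region 1 (chr6:141908501-141909130, 630 bases), near the lower-coordinate end, had a peak in HFD 1 and HFD 2 alone, with fold enrichments of 7.5 and 6.68. Region 4 (chr6:141936400-141936506) was listed for HFD 3 alone at 7.32, and region 2 (chr6:141911811-141911928) for WT 3 alone at 7.08. Slco1a1 thus held regions that leaned to each diet, and the gene as a whole had a peak in 3 of 3 livers of both. With each list held to its upper part, Slco1a1 had a peak in 1 HFD liver, against 3 WT livers. The HFD peak was region 4 of HFD 3, at its list median of 7.32, and each WT liver kept region 3. The count thus compares different regions. The share of all genes that differ in this way was not computed, so Slco1a1 is not set apart from that background.

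**Figure D2:**
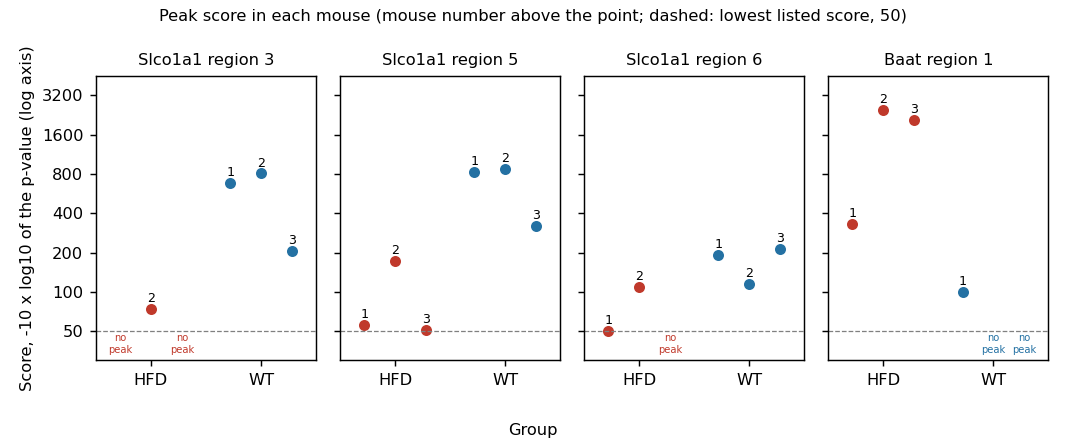
Peak scores (minus 10 times the log10 of the p-value, log axis) of 3 Slco1a1 regions and the Baat region in each HFD mouse and each WT mouse. HFD scores of Slco1a1 region 5 were 51.2 to 172, against 321 to 869 in WT livers, and Baat had no peak in WT 2 and WT 3.

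Slco1b2, a carrier for uptake of bile acids and other organic anions (gene ID 28253, chr6:141629452-141686646), had its recurrent regions at the opposite end of the coordinates. Region 1 (chr6:141629518-141629556), the shortest of the 22 at 39 bases, had fold enrichments of 14.0, 11.6 and 8.57 in HFD livers, against 8.21, 8.78 and 8.49 in WT livers. HFD 1 and HFD 2 were above all WT livers and HFD 3 lay among them. Its score was 3100 in 5 livers and 2089 in WT 1, and 3100 was a value shared by 4671 peaks over all 6 lists, so these scores could not be ranked. Region 2 (chr6:141634384-141634535, 152 bases) had 11.3, 10.98 and 11.1 in HFD livers, against 9.30, 10.2 and 10.7 in WT livers. All HFD values were higher by a narrow margin, and after division by the library median the groups overlapped. Regions 3 and 4 (chr6:141683204-141683321 and chr6:141685390-141686646) were listed for HFD 1 alone, at 4.63 and 5.30.

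Baat attaches taurine or glycine to bile acids before their export (gene ID 12012, chr4:49489416-49507915). It had 1 region (chr4:49489418-49490413, 996 bases), which began 2 bases inside the lower-coordinate end of the gene. Its fold enrichment was 7.27, 5.67 and 6.04 in HFD livers, against 5.74 in WT 1 and no peak in WT 2 or WT 3. The score was 329, 2453 and 2082 in HFD livers, against 100.2 in WT 1. WT 2 and WT 3, the livers without the peak, were the libraries with peaks in 11 of 14 muscle markers. WT 1, with a peak in 1 of the 14 markers, had a Baat score below that of every HFD liver. By fold enrichment WT 1 lay between HFD 2 and HFD 3. This is 1 liver, and the part of muscle transcripts in the missing peak was not tested. None of the Baat peaks reached the median fold enrichment of its list.

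Klb, the co-receptor that lets endocrine FGFs bind their receptors (gene ID 83379, chr5:65348411-65386957), had 27 of the 95 peaks in 5 regions. Region 3 (chr5:65375680-65375948, 269 bases) had fold enrichments of 27.3, 9.09 and 15.3 in HFD livers, against 13.3, 10.6 and 12.4 in WT livers. HFD 1 had the highest value of all 95 peaks and HFD 2 the lowest of this region, and the means were 17.2 ± 9.26 in HFD livers and 12.1 ± 1.41 in WT livers (SD, n = 3 each). Region 1 (chr5:65348386-65349236, 851 bases), which started 25 bases before the annotated gene, had 13.6, 6.92 and 5.54 in HFD livers, against 5.79, 5.10 and 6.89 in WT livers. Region 2 (chr5:65371956-65372460, 505 bases) had 5.84, 4.33 and 2.38 in HFD livers, against 3.06, 2.29 and 4.89 in WT livers. The groups overlapped in all 3 regions.

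The other Klb regions, 4 and 5 toward the higher-coordinate end, were found in some livers only. Region 4 (chr5:65378928-65380071, 1144 bases) had fold enrichments of 6.88 and 3.91 in HFD 1 and HFD 2, against 3.72 and 5.09 in WT 1 and WT 3. Region 5 (chr5:65383309-65384003, 695 bases) had 12.2 and 5.07 in HFD 1 and HFD 2, against 5.47, 4.76 and 8.26 in WT livers. HFD 1 was the highest liver in all 5 Klb regions. HFD 3 lacked regions 4 and 5 and WT 2 lacked region 4. The lists of WT 1, HFD 3 and WT 2 held 10109, 10288 and 10376 peaks, and the other lists held 11925 or more. WT 1 had a peak in all 5 regions. The part of list length in the missing peaks was not tested.

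**Figure D3:**
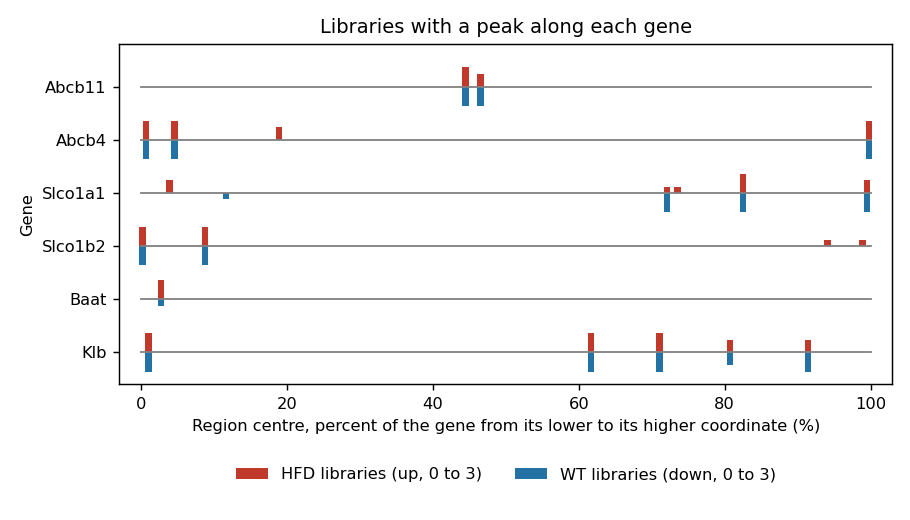
Position of each region's centre along its gene, in percent of the gene's length from its lower to its higher coordinate (horizontal axis), for the 6 genes with peaks (vertical axis). Bars give the number of HFD livers (upward) and WT livers (downward) with a peak, from 0 to 3. Abcb11 peaks lay at 44.5% and 46.5%, whereas Abcb4, Slco1b2 and Klb each had a region found in all 6 livers within 1.04% of the lower-coordinate end.

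The remaining 4 genes had no peak in any of the 6 lists. They were Fgfr4, the receptor that pairs with Klb in hepatocytes, and the exporters Abcc2 (canalicular), Abcc3 and Abcc4 (both sinusoidal). None appeared under its gene ID or a synonym, and no peak of another gene lay within their bounds (chr13:55152818-55168759, chr19:43782308-43838332, chr11:94343295-94393017 and chr14:118482692-118707856). A missing peak does not show that the transcript was unmethylated, since the level of these transcripts was not analysed here. Among related genes, Fgfr2 had a peak in all 6 livers, and Fgfr1 in 2 HFD livers and 1 WT liver. In the Abcc family 3 of 10 genes had a peak in any list, and 4 of 10 in the Abcb family, which included both members described above.

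The level of the 10 regions present in all 6 livers varied between regions, within genes as well as between them. By the geometric mean over 6 livers, fold enrichment was highest in Abcb4 region 2 (15.3) and Klb region 3 (13.7), followed by Slco1b2 region 2 (10.6), Slco1b2 region 1 (9.73) and Abcb4 region 1 (9.23). Abcb4 region 4 (7.46), Klb region 1 (6.88), Slco1a1 region 5 (6.04), Abcb11 region 1 (4.98) and Klb region 2 (3.57) were lower. Neighbours in this order overlapped in their ranges over livers and do not differ beyond that spread. The library medians over regions in all 6 lists were 11.9, 10.4 and 9.32 in HFD livers, against 9.73, 9.49 and 11.4 in WT livers.

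**Figure D4:**
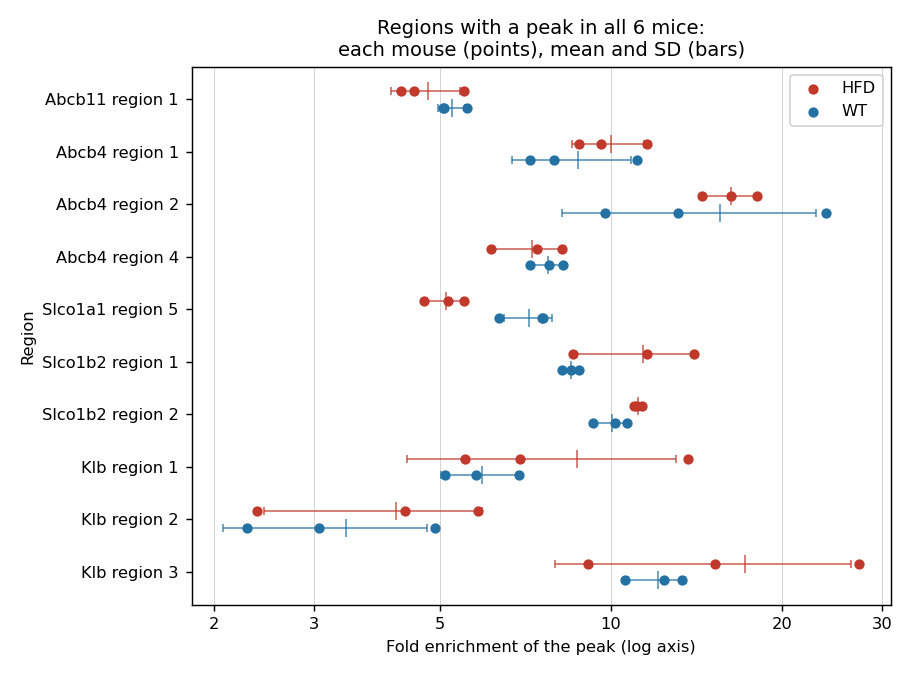
Fold enrichment (log axis) of the 10 regions with a peak in all 6 livers, with HFD mice above WT mice in each region. Points are mice, and bars give the mean and SD of 3. In Slco1a1 region 5 the HFD values (4.68 to 5.51) lie below the WT values (6.36 to 7.58), and in Slco1b2 region 2 the HFD values (10.98 to 11.3) lie above the WT values (9.30 to 10.7).

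Whether diet shifted the fold enrichment was tested with limma on log2 values centred on each library's median, over the 6245 regions with a peak in all 6 livers. No region passed an adjusted p of 0.05 with the Benjamini-Hochberg adjustment (0 of 6245, or 0% of all regions, and 0 of the 10), while 304 of all regions and 0 of the 10 had an unadjusted p below 0.05. Slco1a1 region 5 had the difference farthest from 0 among the 10, with a mean of 5.12 ± 0.417 in HFD livers and 7.17 ± 0.699 in WT livers (SD, n = 3 each). Its log2 difference, HFD minus WT, was -0.53 ± 0.25 (limma, SE), which is 0.694 of the WT level, with an unadjusted p of 0.0503 and an adjusted p of 0.999. The difference was negative in all 13 alternative settings (-0.68 to -0.38). The adjusted p was at least 0.634 in the limma settings with more than 1 liver in each group. These settings reuse the same livers, whose groups did not overlap. Leaving livers out could thus hardly turn the direction, and its persistence adds no support. Without WT 2 and WT 3 the difference was -0.68. That value sets 3 HFD livers against WT 1 alone and assumes that WT 1 varies like the HFD livers.

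Higher mean values in HFD livers were seen in 7 of the 10 regions and lower in 3, none of them past the test. Klb region 1 averaged 8.70 ± 4.33 in HFD livers and 5.93 ± 0.903 in WT livers (SD, n = 3 each), a log2 difference of 0.41 ± 0.28 (limma, SE; adjusted p = 0.999). This difference rested on HFD 1, without which it was 0.12, and that of Klb region 3 was 0.33 ± 0.32 with HFD 1 and 0.01 without it. Slco1b2 region 1 averaged 11.4 ± 2.72 in HFD livers and 8.49 ± 0.285 in WT livers, with a log2 difference of 0.35 ± 0.24 (limma, SE; adjusted p = 0.999). For Abcb4 region 2 the difference of 0.12 ± 0.30 turned to -0.05 without HFD 3 and to -0.14 without WT 1. The log2 differences of the remaining 5 regions were between -0.19 (Abcb11 region 1) and 0.23 (Klb region 2), with SEs of 0.24 to 0.30. Single livers moved them too, since Klb region 2 was at 0.03 without HFD 1 and 0.02 without WT 2, and Abcb11 region 1 at -0.10 without WT 2.

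The groups were without overlap in 1 region in each direction. All HFD values exceeded all WT values in 1 of the 10 (Slco1b2 region 2, beside 4.64% of all regions), and all WT values exceeded all HFD values in 1 (Slco1a1 region 5, beside 3.68%). After division by the library median these counts were 0 of 10 (beside 4.48%) and 1 of 10 (beside 5.09%), and for the score they were 0 of 10 (beside 5.28%) and 1 of 10 (beside 2.9%). The median log2 difference of the 10 regions was 0.14, beside -0.02 over all 6245. It was no larger than the spread between livers, since the median of the 10 regions per liver had a pooled SD of 0.14 within groups.

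**Figure D5:**
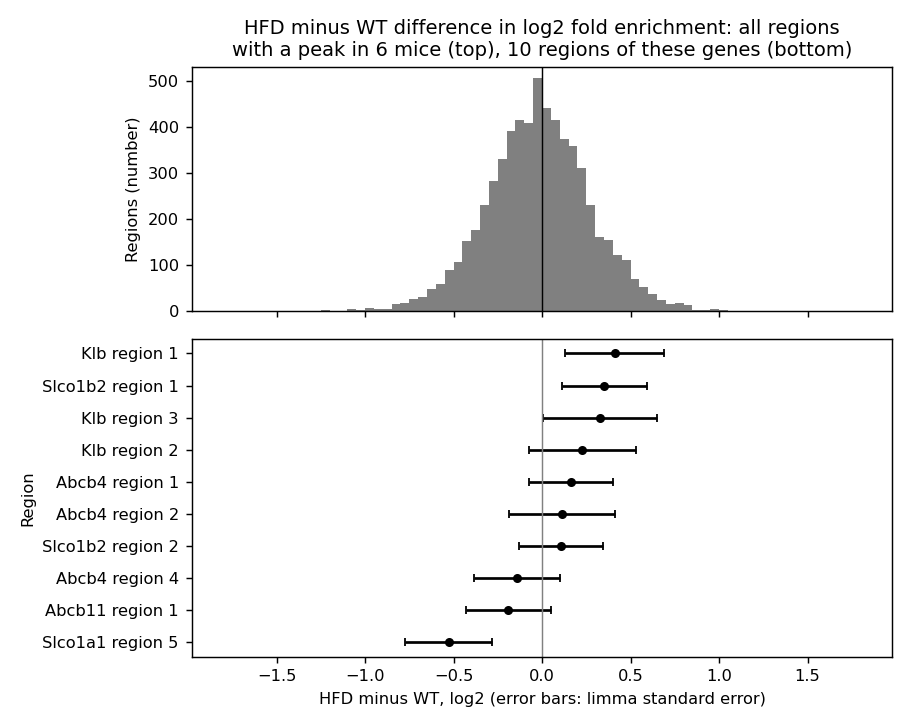
Difference in log2 fold enrichment, HFD minus WT (horizontal axis), for all 6245 regions with a peak in 6 livers (top, number of regions) and for the 10 regions of the bile acid genes (bottom, with limma standard errors). Slco1a1 region 5, at -0.53, lies below the 10th percentile of all regions (-0.38), and Klb region 1, at 0.41, lies above the 90th percentile (0.35). By definition 10% of all regions lie beyond each of these limits, so 1 of 10 on each side matches that share.

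The wider bile acid system was read from a list of 38 further genes. Of these, 18 had a peak in at least 1 list, 9 had one in all 6 livers and 20 had none. Their 42 regions included 0 found in 3 HFD livers and no WT liver, and 0 found in 3 WT livers and no HFD liver. By group, a peak was found for 5 of 13 genes of synthesis, 6 of 11 of transport and 7 of 14 of regulation. The 1 gene that differed by at least 2 livers was Nr1h4, the nuclear receptor for bile acids, with a peak in 3 HFD livers and in 1 WT liver (WT 2). Its peaks were spread over 4 regions, of which none was found in all 6 livers and none differed by at least 2 livers. The share of all genes that differ by at least 2 livers was not computed, so Nr1h4 is not set apart from that background. Cyp7a1, the rate-limiting enzyme of bile acid synthesis, had a peak in 2 HFD livers and 1 WT liver. By region, Cyp7a1, Slco2b1 and Fgfr2 each had 1 with a peak in 2 HFD livers and no WT liver. No region of the list had at least 2 more WT than HFD livers. Over all regions these patterns held for 6.03% (at least 2 more HFD livers) and 4.1% (at least 2 more WT livers). Slc10a1, the main sodium-dependent carrier for uptake of conjugated bile acids, and Nr0b2, a repressor of Cyp7a1, had a peak in all 6 livers.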

How the data were processed

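One deposited peak list per m6A library (6 lists) was used. Per the labels, the submitters' processing notes list Bowtie 1.1.2, MACS2 2.1.0, Trimmomatic 0.33 and bcl2fastq 2.17 with a human build, whereas the lists hold mouse genes at positions that fit GRCm38. The authors' peak caller gave the fold enrichment, a ratio of immunoprecipitate to input, the score and the false discovery rate in percent, which were deposited without scaling between libraries. No interval for counting error was computed, since library depths are not stated in the files or labels used.

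Peaks sharing at least 1 base were merged into regions, and the strongest peak of a library represented it. Gene bounds came from the RefSeq annotation of GRCm38, where 7696 of 7736 gene IDs matched. That table has no exons or strand, so positions are given by coordinate and no sequence is shown. Log2 fold enrichment was centred on the library median and fitted with limma 3.58.1 in R 4.3.3 for regions in all 6 lists, with the Benjamini-Hochberg adjustment over all of them (threshold 0.05). The script was tested on simulated data. Numbers of peaks were compared by two-sided exact permutation. All regions of the 10 genes were described, and a gene of the wider list was named when its HFD and WT livers with a peak differed by at least 2, or for its role (Cyp7a1, Slc10a1, Nr0b2 and the Fgfr genes, chosen after their values were seen). Genes of that list with a single region that differed by at least 2 livers were also named, after the values were seen. The members and gene lists were chosen with earlier results of these data known. Alternatives changed the centring, the merging, the peak threshold, the list length, the number of libraries asked for, the pairing and the libraries included.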

Additional observations from a re-analysis of the deposited data

How the results depend on the processing

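No region of the bile acid genes passed limma in the alternative settings with more than 1 liver in each group. The median log2 difference of these regions stayed positive in all 13 settings (0.02 to 0.26). Their median per liver had a pooled SD of 0.14 within groups in the reported fit, so these values do not set the diets apart. Over all regions 2 passed when a peak in at least 2 libraries of each group was enough, 0 to 2 with 1 library left out, and 2 without WT 2 and WT 3, against 0 in the reported fit. That last setting leaves WT 1 alone, which is assumed to vary like the HFD livers. The difference of 553 in peaks per library ran from -43.8 (without HFD 1) to 1460 with 1 library left out. The log2 difference of Abcb4 region 2 ran from -0.14 (without WT 1) to 0.39 with 1 library left out, and was -0.053 without HFD 3. Regions in all HFD and no WT libraries numbered 132 of 18374, against 84 of 9627 with peaks at or above the list median. They numbered 727 with at least 2 libraries against none and 1108 with at least 2 more libraries. With 1 library left out they numbered 204 to 461, and without WT 2 and WT 3 they numbered 831. The WT counterpart numbered 54, against 27, 504, 753, 111 to 335 and 525 under the same settings. With lists of equal length it was 91, beside 94 for HFD, of 15922 regions. Among the bile acid genes the HFD count of 0 became 2 with at least 2 libraries against none (Abcb4 region 3, Slco1a1 region 1), 3 with at least 2 more libraries, and 0 to 1 with 1 library left out (Abcb4 region 3 without HFD 1, Slco1a1 region 1 without HFD 3, Baat without WT 1). The WT count of 0 became 1 (Slco1a1 region 3) with peaks at or above the list median (of 11 regions) and with lists of equal length (of 21 regions). It was also 1 with at least 2 more libraries and without HFD 2, and was 0 to 1 with 1 library left out. The causes were not tested. The settings with at least 2 more libraries and without WT 2 and WT 3 were chosen after seeing the data. Same-numbered mice did not deviate together (r = -0.0438, 0.0243 and -0.221), while differently numbered mice had r from -0.184 to 0.206. With 3 mice per group these values cannot decide whether the mice were paired, and the labels state no pairing. With a replicate block, 0 regions passed and the difference of 553 peaks had an exact sign-flip p of 0.75, where the smallest is 0.25. A peak list gives no value where no peak was called, so an absent peak may lie just under the caller's threshold, and the depth of the libraries is unknown.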
